A study of Mus musculus with 6 samples.

Results

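Collagen chain genes code for the alpha chains that assemble, 3 at a time, into collagen. They were taken here by name: every gene whose symbol is Col, a number, the letter a and a number, such as Col1a1, on arrays of mouse fat. The platform annotation gave 42 such genes, with 82 probe sets, among 18193 genes that had a probe set with a single symbol. Each gene was read from its probe set with the highest mean signal over the 6 arrays. The tissue was fat of NOD mice, an inbred strain that develops autoimmune diabetes, with 2 Affymetrix arrays in each of 3 groups and no genetic change or transgene named in any group. The normoglycemic mice were females of 10 weeks. The diabetic mice had blood glucose above 300 mg/dl on 3 consecutive days. The AAT-treated mice had received alpha-1-antitrypsin, a serum protease inhibitor, and had reverted stably and no longer needed insulin. The labels give no age or sex for the diabetic and AAT-treated mice, no fat depot, and no dose of AAT, so age and disease state cannot be told apart. Whether the 2 arrays of a group hold RNA of different mice is not stated either, and the spread between them, on which every p-value rests, may be technical.

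Collagens are secreted as procollagen after prolyl and lysyl hydroxylation and folding in the endoplasmic reticulum, trimmed outside the cell, and crosslinked. Types I, III and V form the fibrils of fat stroma. Type VI forms the beaded filaments that lie around adipocytes and is known for its abundance in fat. Type IV makes the sheet of the basement membrane that surrounds each adipocyte and each capillary, and types XV and XVIII sit at its edge. Fibroblasts and adipose progenitors are known as the main makers of fibrillar collagen in fat, and adipocytes and endothelial cells make type IV.

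Upstream sequence is shown for 5 of the chains described in detail, each with a RefSeq window that ends at the annotated gene start. RefSeq (GRCm38.p6) windows were given for 33 of the 42 genes. Each line below holds the 150 bases before the start of the gene, 5′ to 3′ on the gene's strand, with each match in capitals. The TATA box (TATAAA), the binding letters of the factor NF-Y (CCAAT) and the GC box bound by Sp1 (GGGCGG) were searched on both strands, and none of these motifs holds another. The windows are chr6:4505468-4505617 on the plus strand for Col1a2, chr1:45311388-45311537 on the plus strand for Col3a1, chr10:76726045-76726194 on the minus strand for Col6a1, chr10:76623631-76623780 on the minus strand for Col6a2 and chr10:77166531-77166680 on the minus strand for Col18a1.
Col1a2: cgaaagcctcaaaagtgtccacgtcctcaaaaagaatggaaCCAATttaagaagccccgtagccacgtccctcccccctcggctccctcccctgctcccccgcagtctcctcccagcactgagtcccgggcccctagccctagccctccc
Col3a1: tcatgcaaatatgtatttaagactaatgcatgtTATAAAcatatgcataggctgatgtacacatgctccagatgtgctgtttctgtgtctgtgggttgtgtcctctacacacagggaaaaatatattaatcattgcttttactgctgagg
Col6a1: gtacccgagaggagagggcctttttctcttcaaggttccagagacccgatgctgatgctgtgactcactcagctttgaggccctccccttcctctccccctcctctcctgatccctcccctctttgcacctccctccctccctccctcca
Col6a2: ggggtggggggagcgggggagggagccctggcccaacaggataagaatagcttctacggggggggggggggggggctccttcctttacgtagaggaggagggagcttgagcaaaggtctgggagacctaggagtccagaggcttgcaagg
Col18a1: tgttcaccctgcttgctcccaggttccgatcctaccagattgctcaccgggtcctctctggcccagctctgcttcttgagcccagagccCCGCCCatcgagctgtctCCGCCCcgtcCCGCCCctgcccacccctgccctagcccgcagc

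Col4a1 and Col4a2 lie next to each other and are read in opposite directions. On the RefSeq map Col4a1 runs on the minus strand at chr8:11198423-11312889 and Col4a2 on the plus strand at chr8:11312805-11449287, and the spans overlap by 85 bases at their starts. No upstream sequence is printed for this pair.

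GGGCGG on either strand was in 17 of the 33 collagen windows (51.5%), beside 29% of all 27025 RefSeq windows of the same length. CCAAT was in 7 (21.2%), beside 25.3% of all windows, and TATAAA was in 4 (12.1%), beside 8.08%. Most of the 33 collagen windows, unlike the printed ones, do not end at the annotated gene start. These shares describe the letters in these windows only. Other chains that neighbour each other on the RefSeq map are Col3a1 and Col5a2, Col6a1 and Col6a2, Col4a3 and Col4a4, Col4a5 and Col4a6, Col6a4 and Col6a5, and Col9a1 and Col19a1.

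The arrays carried MAS5 signals that had been scaled to a 2% trimmed mean of 500 on each array. Their ratio of β-actin signal at the 3′ end to the 5′ end, a sign of RNA or target quality, was 3.63 and 4.30 on the normoglycemic, 15.2 and 15.5 on the diabetic, and 9.08 and 5.87 on the AAT-treated arrays. For Gapdh the same ratio was 0.910 and 0.946 on the normoglycemic, 2.46 and 4.63 on the diabetic, and 2.31 and 0.790 on the AAT-treated arrays. It was thus highest on diabetic 2. Hybridisation controls were brightest on normoglycemic 1 and AAT-treated 2. Adipocyte markers were high on all 6 arrays, with Adipoq between 15689.8 and 48984, although leptin (Lep) ranged from 18.7 on diabetic 1 to 9408 on diabetic 2. The number of arrays limits the precision: an exact permutation test of 2 arrays against 2 cannot go below p = 0.333.

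A signal filter kept 29 of the 42 collagen chain genes and 13043 of all genes. The filter was a mean signal above 164.4, the 40th percentile of probe set means. Col6a4, at a mean of 164.1, fell just outside it, and the nearest member inside was Col19a1 at 195.0. Differences are given on the scale of log2(signal + 74.5), which understates the change of dim genes, with the standard error from limma fitted over all 13043 genes (n = 2 arrays a group). No gene passed an adjusted p of 0.05 in any of the 3 comparisons by limma, collagens included, so every value below is a measured difference and not a call. The diabetic arrays serve both the comparison with normoglycemic mice and that with AAT-treated mice, so opposite signs in those 2 comparisons can come from the same 2 arrays.

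Between diabetic and normoglycemic fat, 20 of the 29 collagen chain genes were higher in the diabetic mean and 9 were lower, beside 46.4% of all genes higher. Their median difference was 0.50, ranging from -1.30 to 1.76, and the median of all genes was -0.05. Since the filter can favour members that were bright in some group, the same was taken without it: 24 of 42 were higher, with a median of 0.23 beside -0.08 over 18193 genes. An unadjusted p under 0.05 by limma was reached by 5 of the 29 kept members, all higher (Col1a1, Col5a3, Col5a1, Col6a1 and Col8a2). Over all genes 5.27% were higher and 4.62% lower at that level. Without the filter 5 of 42 were higher and 1 lower at that level, beside 1556 of 18193 genes in either direction. Both normoglycemic signals of Col8a2 were below the filter value of 164.4, so it was kept through the other groups. The groups did not overlap, with both diabetic arrays above both normoglycemic arrays, for 9 of the 29 kept members (20.2% of all genes), and with both below for 3 (24.5% of all genes). The smallest adjusted p of a member was 0.481, and 1291 of all genes (9.9%) reached an unadjusted p under 0.05.

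**Figure D1:**
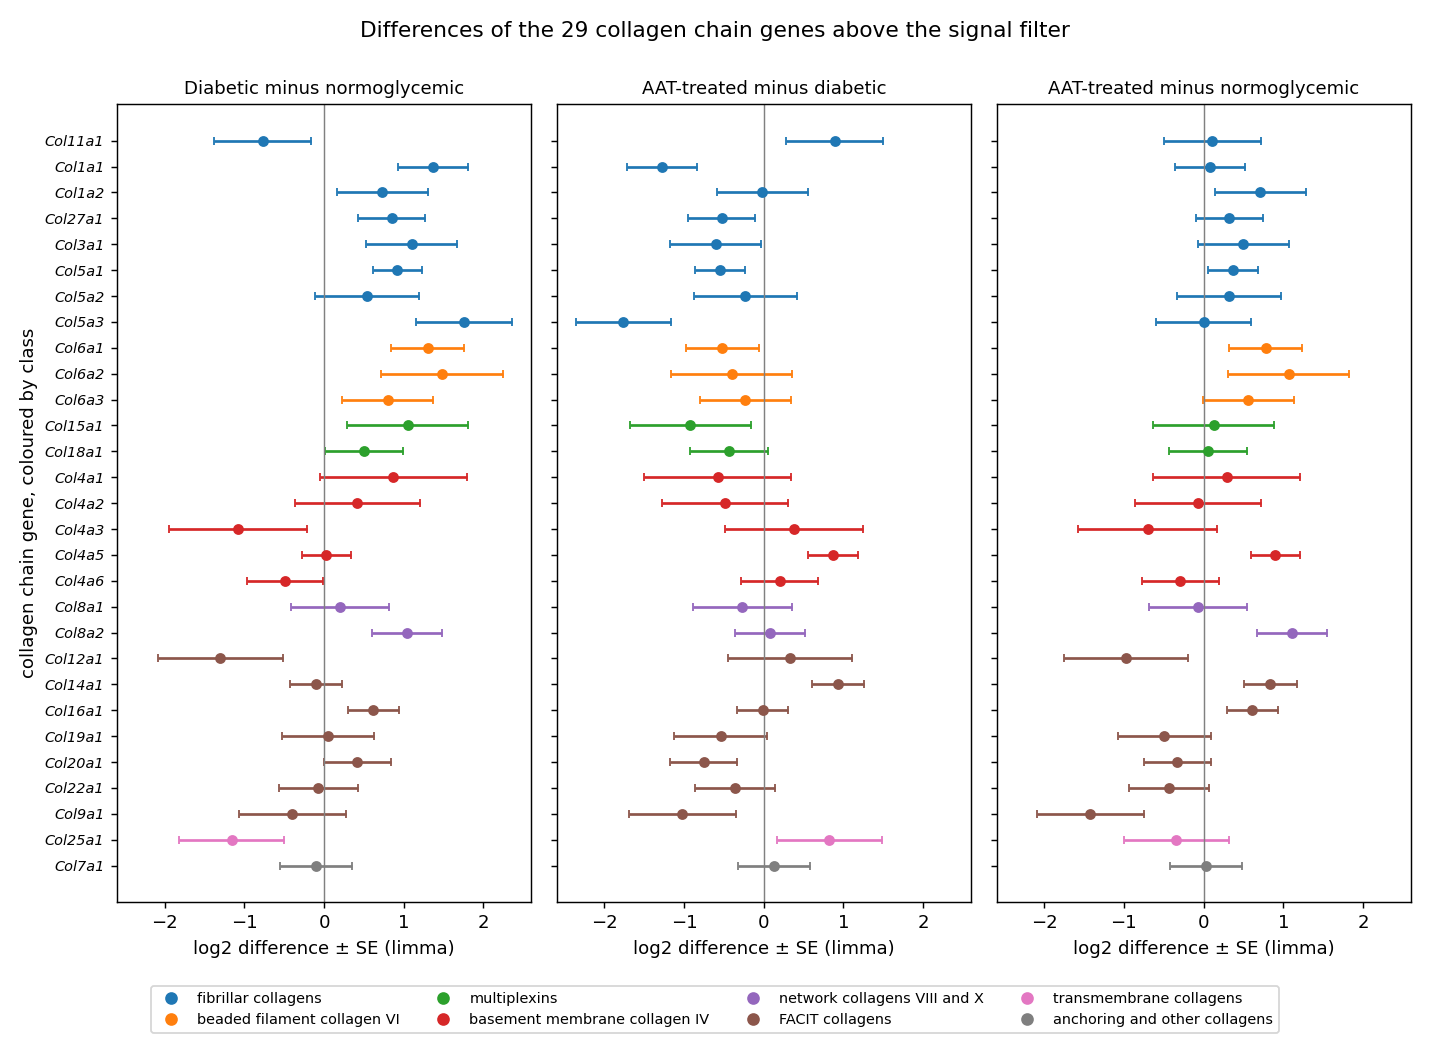
Log2 difference on the scale of log2(signal + 74.5) with its standard error from limma for the 29 collagen chain genes above the signal filter, coloured by class, in the 3 comparisons (n = 2 arrays a group). In the left panel 7 of 8 fibrillar and all 3 collagen VI genes kept lie right of zero, and in the middle panel Col1a1 and Col5a3 lie farthest left while Col14a1, Col11a1 and Col4a5 lie farthest right.

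Of the fibrillar chains, 8 of 11 were kept, and 7 of these were higher in the diabetic mean, with a median of 0.89 that was 0.49 without diabetic 2 and 1.68 without diabetic 1. Col1a1, the alpha1 chain of type I and the main chain of most connective tissue, had signals of 322 and 621 on the normoglycemic arrays, 1005 and 1625 on the diabetic arrays, and 658 and 347 on the AAT-treated arrays. Both diabetic arrays were above the other 4, and the normoglycemic and AAT-treated arrays covered the same range. Its difference was 1.37 ± 0.44 for diabetic minus normoglycemic (unadjusted p = 0.0135, adjusted p = 0.481), which is 2.58-fold, and -1.28 ± 0.44 for AAT-treated minus diabetic (unadjusted p = 0.0181, adjusted p = 0.961). AAT-treated minus normoglycemic was 0.08 ± 0.44. With single arrays left out the first of these ranged from 0.96 to 1.77 and the second from -1.68 (without AAT-treated 1) to -0.89 (without AAT-treated 2). A second probe set of Col1a1 gave 1.42, -0.05 and 1.36 for these 3 comparisons. On that probe set the AAT-treated signals were 749 and 790 against 277 and 232 in normoglycemic fat, and diabetic 1, at 305, lay near the normoglycemic arrays.

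Col5a3, a chain of type V, the collagen that nucleates and limits the width of type I fibrils, had the highest difference of any member. Its signals were 752 and 1257 on normoglycemic arrays, 2251 and 5335 on diabetic arrays and 1760.2 and 523 on AAT-treated arrays. Diabetic fat was 3.38-fold above normoglycemic (1.76 ± 0.60, unadjusted p = 0.0179) and AAT-treated fat was 3.39-fold below diabetic (-1.76 ± 0.60, unadjusted p = 0.0177). Single arrays moved both values: the first was 1.15 without diabetic 2 and 2.37 without diabetic 1, and the second was -0.95 without AAT-treated 2, -1.15 without diabetic 2 and -2.57 without AAT-treated 1. AAT-treated minus normoglycemic was 0.00 ± 0.60, with the 2 AAT-treated arrays on either side of the normoglycemic ones. Col5a1, the chain found in nearly all type V molecules, read 1094 and 1237 on normoglycemic arrays, 1971 and 2615 on diabetic arrays and 1681 and 1385 on AAT-treated arrays. None of its 3 groups overlapped another. Its difference was 0.92 ± 0.31 for diabetic minus normoglycemic (unadjusted p = 0.0181), -0.55 ± 0.31 for AAT-treated minus diabetic and 0.37 ± 0.31 for AAT-treated minus normoglycemic. A second Col5a1 probe set gave 0.80, -0.39 and 0.41. On it diabetic 1, at 856, lay below both AAT-treated arrays, at 962 and 863, so those groups overlapped.

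Both diabetic arrays lay above the other 4 for Col1a1, Col5a1, Col5a3 and Col20a1, which is 4 of 29 members, beside 8.36% of all genes. The second probe sets of Col1a1, Col5a1 and Col20a1 did not show this: on each, diabetic 1 was below both AAT-treated arrays. Col5a3 had no second probe set above the filter. Both diabetic arrays lay below the other 4 for 0 of the 29, beside 9.55% of all genes. Among the members under the filter, Col13a1 (15.8 and 44.3 on the diabetic arrays) and Col17a1 (19.4 and 11.8) had that order. The β-actin ratio was also highest on both diabetic arrays, so that ratio and diabetic state cannot be told apart. With that ratio as a covariate, the diabetic minus normoglycemic difference was -1.71 ± 1.43 for Col1a1, -3.48 ± 1.73 for Col5a3 and -0.02 ± 1.23 for Col5a1. The ratio varied little within the diabetic (15.2 and 15.5) and normoglycemic arrays (3.63 and 4.30). Its slope thus rests mostly on the AAT-treated arrays (9.08 and 5.87) and is carried over a wider gap between groups. The same fit gave -7.00 for Col4a1 and 7.51 for Col4a3, and no conclusion is drawn from it.

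Col3a1, Col1a2 and Col5a2 did not separate the groups in that way. Col3a1, the single chain of type III, read 4214 and 6012 on normoglycemic arrays, 6050.5 and 19622 on diabetic arrays and 9626 and 5302 on AAT-treated arrays. Diabetic 1 was barely above normoglycemic 2, and diabetic 2 stood alone at the top. Its difference was 1.10 ± 0.57 (unadjusted p = 0.0877), and 0.26 without diabetic 2. Col1a2, the alpha2 chain of type I, read 2705 and 3280.4, then 2527 (diabetic 1) and 9827 (diabetic 2), then 5608 and 4308. Diabetic 1 was the lowest of all 6 arrays, and both AAT-treated arrays were above both normoglycemic ones. Its differences were 0.73 ± 0.57, -0.02 ± 0.57 and 0.71 ± 0.57 for diabetic minus normoglycemic, AAT-treated minus diabetic and AAT-treated minus normoglycemic, and without diabetic 2 the first was -0.23. Col5a2, the second common chain of type V, also had its lowest signal on diabetic 1 (542) and its highest on diabetic 2 (2862), around normoglycemic signals of 700.5 and 1026 and AAT-treated signals of 1340.1 and 861. Col27a1, known from cartilage, was highest on diabetic 1 (1944), and its other signals lay between 571 and 1020.3. Col11a1, a cartilage fibril chain, was the one fibrillar member lower in the diabetic mean, by 0.77 ± 0.61 on the log2 scale, with its 2 highest signals on AAT-treated 2 (487) and normoglycemic 1 (399).

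**Figure D2:**
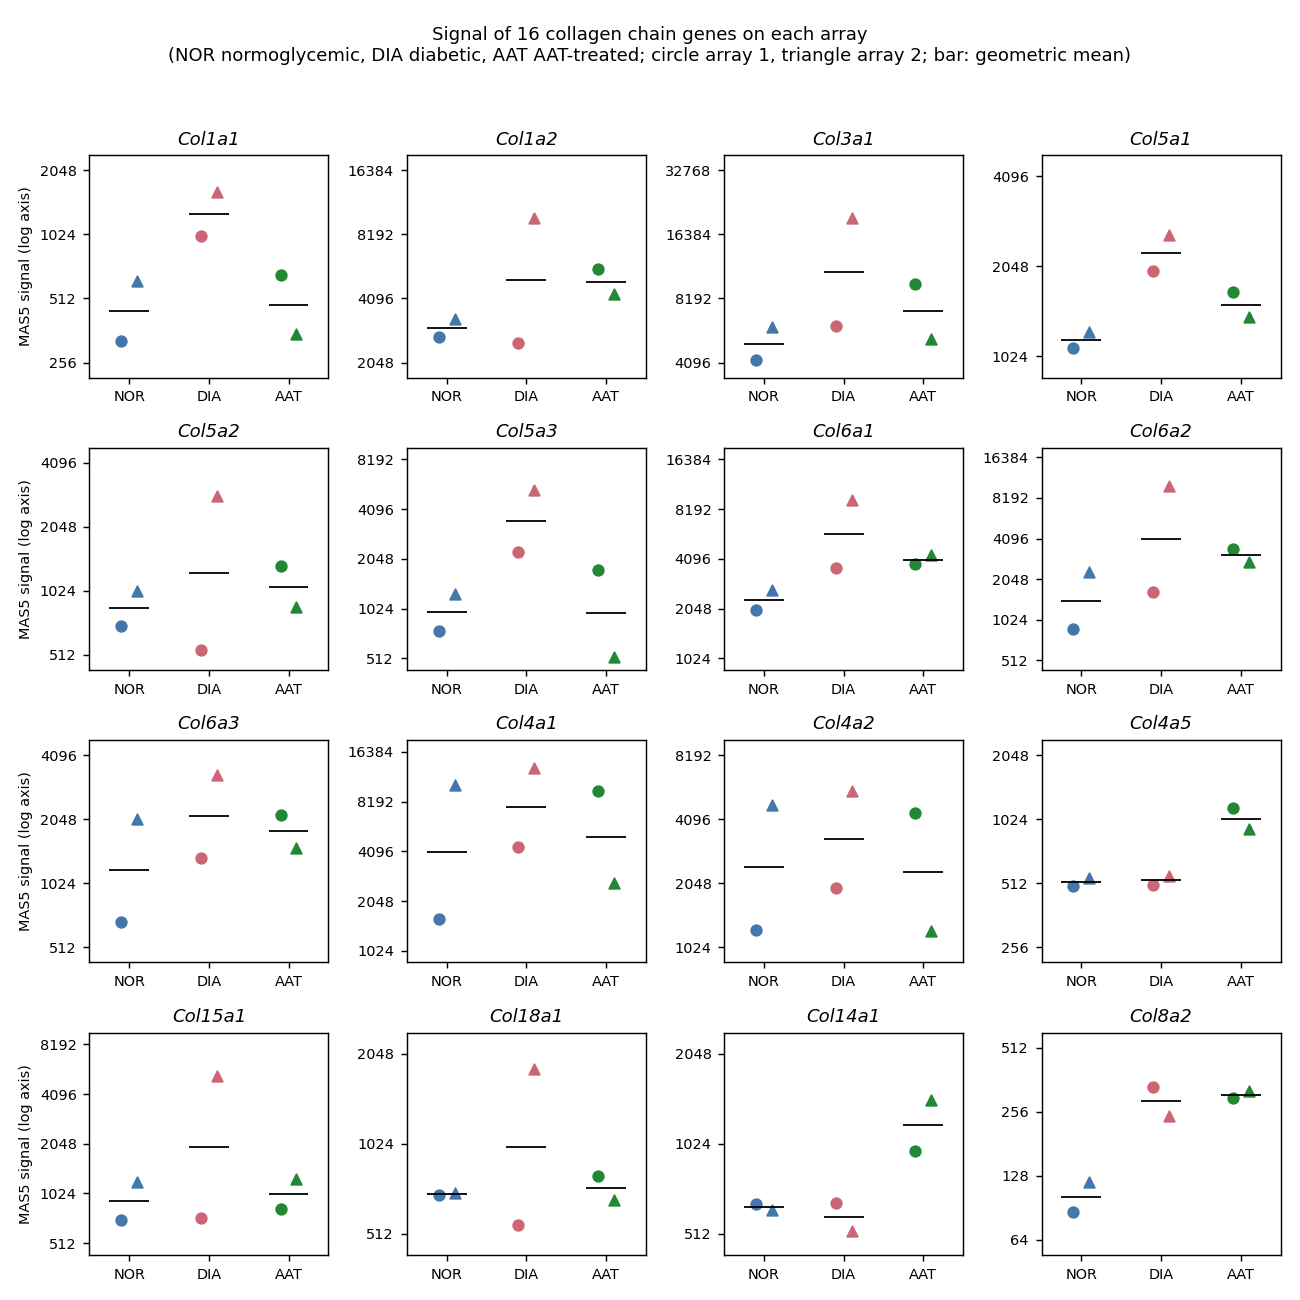
MAS5 signal (log axis, arbitrary units) of 16 collagen chain genes on each array, by group; circles are array 1, triangles array 2 and bars the geometric mean of the 2. Col1a1, Col5a1 and Col5a3 have both diabetic arrays above the other 4, whereas Col1a2, Col5a2, Col15a1 and Col18a1 are high on diabetic 2 and low on diabetic 1.

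Collagen VI, whose molecule joins an alpha1, an alpha2 and an alpha3 chain, had 3 of its 5 measured genes kept. All 3 were higher in the diabetic mean and also in the AAT-treated mean than in normoglycemic fat, with medians of 1.30 and 0.78. Both medians leaned on single arrays: the first was 0.21 without diabetic 2 and 0.81 without normoglycemic 1, and the second was 0.41 without normoglycemic 1. Col6a1 read 2015.5 and 2655 on normoglycemic arrays, 3601 and 9336 on diabetic arrays and 3793 and 4303 on AAT-treated arrays. Both normoglycemic arrays were below the other 4. Its difference was 1.30 ± 0.46 for diabetic minus normoglycemic (unadjusted p = 0.0208), -0.52 ± 0.46 for AAT-treated minus diabetic and 0.78 ± 0.46 for AAT-treated minus normoglycemic. Without diabetic 2 the first was 0.62 and the second 0.16. Col6a2 read 872 (normoglycemic 1), 2298 (normoglycemic 2), 1657 (diabetic 1), 9967 (diabetic 2), 3418 (AAT-treated 1) and 2769 (AAT-treated 2). Diabetic 1 lay between the normoglycemic arrays, and the difference of 1.48 ± 0.76 rested on diabetic 2: without that array it was 0.21. Col6a3 read 676 and 2065, then 1349 and 3325, then 2147 and 1506, and all 3 groups overlapped. Its diabetic minus normoglycemic difference of 0.80 ± 0.57 was 0.04 without normoglycemic 1. Col6a1 and Col6a2 are neighbours on chromosome 10, and none of the 3 motifs was found in either of their printed windows.

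The multiplexins, types XV and XVIII, whose C-terminal fragments restin and endostatin are known to act on vessels, were both highest on diabetic 2. Col15a1 read 706 and 1205 on normoglycemic arrays, 725 and 5263 on diabetic arrays and 820.3 and 1256 on AAT-treated arrays. Diabetic 2 stood far above the other 5. The diabetic minus normoglycemic difference was 1.05 ± 0.76 with all arrays and -0.32 without diabetic 2. Col18a1 read 549 on diabetic 1 and 1819 on diabetic 2, and its other 4 signals lay between 664 and 799. Its difference was 0.50 ± 0.49 with all arrays and -0.30 without diabetic 2.

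Across the kept members, diabetic 2 held the highest signal for 14 of 29, beside 16.6% of all genes. These 14 were Col1a1, Col1a2, Col3a1, Col5a1, Col5a2, Col5a3, Col6a1, Col6a2, Col6a3, Col4a1, Col4a2, Col15a1, Col16a1 and Col18a1. Diabetic 2 was also the array with the highest Gapdh 3′ to 5′ ratio (4.63), and the part of RNA quality in these values was not tested. Normoglycemic 1 held the lowest signal for 11 members (23% of all genes) and the highest for 5 (29.2%), and AAT-treated 2 held the highest for 5 (20.4%). Within the diabetic group the median of array 2 minus array 1 was 0.53 over the members and -0.02 over all genes, while the same median was 0.17 between the normoglycemic arrays and 0.08 between the AAT-treated arrays. Leaving out diabetic 2 took the members' median difference from 0.50 to 0.04 and the count at an unadjusted p under 0.05 by limma from 5 to 1 of 29, beside 5.87% of all genes in that fit. Leaving out diabetic 1 gave a median of 0.85 and 10 members (5.71% of all genes). Leaving out normoglycemic 1 gave 0.31 and 0 members (4.25%). Leaving out normoglycemic 2 gave 0.80 and 8 members, in a fit where 14.9% of all genes reached that p.

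**Figure D3:**
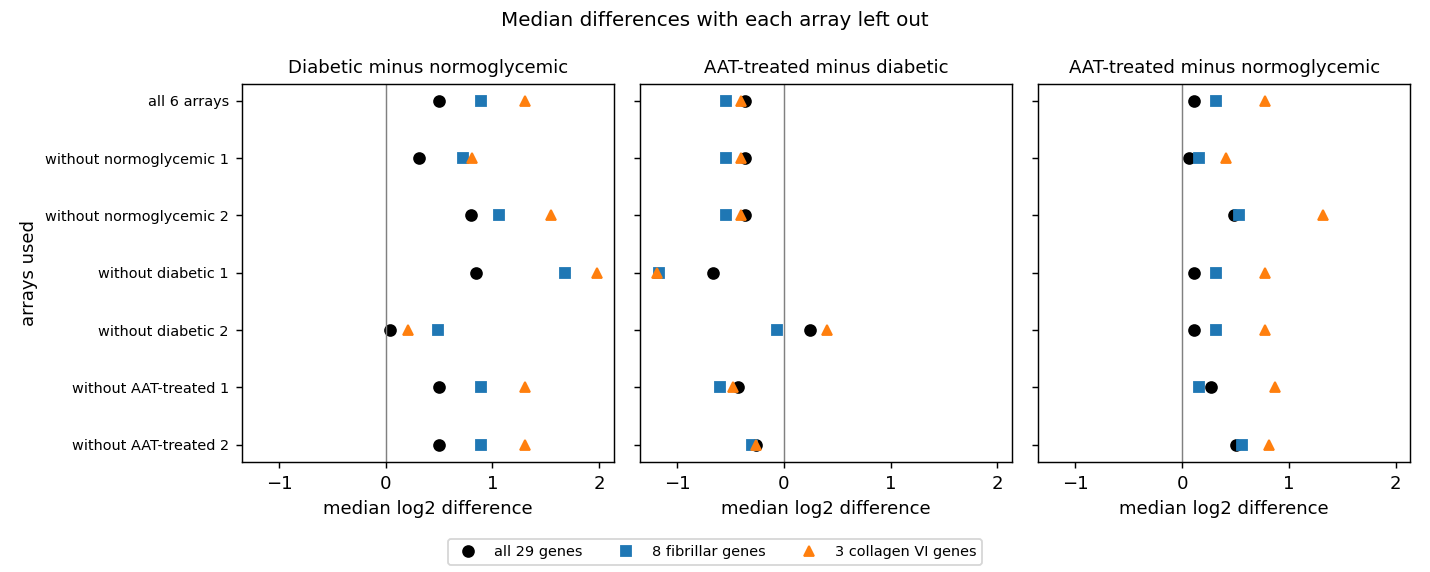
Median log2 difference of the 29 kept collagen chain genes, the 8 fibrillar and the 3 collagen VI genes kept, with all 6 arrays and with each array left out, in the 3 comparisons. Without diabetic 2 the diabetic minus normoglycemic median of all 29 is 0.04 and that of the fibrillar genes 0.49, and the AAT-treated minus diabetic median of all 29 is 0.24 instead of -0.36.

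The chains of collagen IV differed in pattern, and Col4a1 and Col4a2 overlapped in every comparison. Col4a1, the alpha1 chain of all common basement membranes, read 1605 and 10306 on normoglycemic arrays, 4356 and 13126 on diabetic arrays and 9522 and 2636 on AAT-treated arrays. Its partner and neighbour Col4a2 gave 1242 and 4774, 1942 and 5584, and 4394 and 1221. For both chains normoglycemic 1 and AAT-treated 2 were low and normoglycemic 2, diabetic 2 and AAT-treated 1 were high, so that each group held 1 high and 1 low array. The differences were 0.87 ± 0.92 and 0.42 ± 0.79 for diabetic minus normoglycemic, and -0.44 and -0.52 without normoglycemic 1. Across these 6 arrays, endothelial markers were also low on the same 2: the summed signal of 6 markers was 2130 on normoglycemic 1 and 3160 on AAT-treated 2. The sum was 14600 on normoglycemic 2, 12800 on AAT-treated 1, 9760 on diabetic 1 and 5290 on diabetic 2. Diabetic 2 thus had the lowest endothelial sum of these 4 arrays and the highest Col4a1 and Col4a2 signals of all 6. In bulk tissue fewer cells of a type and less RNA per cell cannot be told apart, and the part of endothelium in the Col4a1 and Col4a2 values was not tested. Nid1, which links laminin to collagen IV, and Sparc, which binds it, had the same 2 arrays low, at 3426 and 3374 for Nid1 and 5818 and 4895 for Sparc. Both were named after their values were seen, and these 2 arrays were both below the other 4 for 13.7% of all genes. The laminin list of Nid1 had its lowest mean log2 levels there (9.08 and 9.66). The fibril-associated list of Sparc did not: AAT-treated 2 (11.97) was above normoglycemic 2 (11.60) and diabetic 1 (11.23).

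The other collagen IV chains, which are known from kidney, ear and other specialised membranes, had 3 of 4 genes kept. Col4a5, on the X chromosome, read 495 and 544 on normoglycemic arrays, 505 and 556 on diabetic arrays and 1152 and 921 on AAT-treated arrays. Both AAT-treated arrays were above the other 4, and the other groups overlapped. Its difference was 0.87 ± 0.31 for AAT-treated minus diabetic (unadjusted p = 0.0221, adjusted p = 0.961) and 0.90 ± 0.31 for AAT-treated minus normoglycemic (unadjusted p = 0.0193, adjusted p = 0.890). Its second probe set did not show this, with differences of -0.03 and -0.25. Col4a3 read 469 and 187 on normoglycemic arrays, 85.7 and 123 on diabetic arrays and 13.7 and 536 on AAT-treated arrays. Col4a6 read 267 and 270 on normoglycemic arrays, 142 and 201 on diabetic arrays and 138 and 298 on AAT-treated arrays. For both chains the diabetic arrays were below both normoglycemic arrays and the AAT-treated arrays lay on either side of all others. They are, with Col12a1, the 3 kept members with that order of the diabetic and normoglycemic arrays. Their diabetic minus normoglycemic differences were -1.08 ± 0.87 and -0.49 ± 0.48, and 0.22 and -0.16 with the hybridisation controls as a covariate.

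Between AAT-treated and diabetic fat, 20 of the 29 members were lower in the AAT-treated mean and 9 higher, beside 51.2% of all genes higher, and the members' median was -0.36 beside 0.01 over all genes. An unadjusted p under 0.05 was reached by 4 members: Col1a1 and Col5a3 were lower (1.83% of all genes were lower at that level) and Col14a1 and Col4a5 were higher (2.94% of all genes). The 2 groups did not overlap, with AAT-treated below, for 5 members (15.9% of all genes), which were Col1a1, Col5a3, Col5a1, Col20a1 and Col9a1, and with AAT-treated above, for 2 (17.9% of all genes), Col14a1 and Col4a5. Without diabetic 2 the median was 0.24 and 1 member reached that p, beside 3.44% of all genes. Without diabetic 1 the median was -0.66 and 10 members did, beside 3.82% of all genes. The smallest adjusted p of a member was 0.961, and 622 of all genes (4.77%) reached an unadjusted p under 0.05.

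Col14a1, a FACIT chain that sits on the surface of collagen fibrils, had both AAT-treated arrays above the other 4. Its signals were 642 and 616 on normoglycemic arrays, 647 and 525 on diabetic arrays and 972 and 1432 on AAT-treated arrays. AAT-treated minus diabetic was 0.93 ± 0.33 (unadjusted p = 0.0209) and AAT-treated minus normoglycemic was 0.84 ± 0.33 (unadjusted p = 0.0334). Its second probe set gave -0.32 and 0.77, and on it normoglycemic 1 was lowest at 53.9. Col14a1 and Col4a5 were the members with both AAT-treated arrays highest, which is 2 of 29, near the 5.81% of all genes. On the second probe set of Col4a5 AAT-treated minus diabetic was -0.03. Of 8 smooth muscle and pericyte markers, 6 had both AAT-treated arrays above both diabetic arrays, beside 17.9% of all genes. Myh11 read 849 and 617 on diabetic and 6346 and 11589 on AAT-treated arrays. Summed over the 8 markers, the signal was 9100 and 38400 on normoglycemic arrays, 28800 and 20000 on diabetic arrays and 70100 and 87200 on AAT-treated arrays. The part of smooth muscle in the Col14a1 and Col4a5 values was not tested.

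Between AAT-treated and normoglycemic fat, 18 of 29 members were higher in the AAT-treated mean and 11 lower, with a median of 0.11 beside -0.03 over all genes, of which 48% were higher. Without the filter the median over 42 members was -0.02. Over all genes 669 (5.13%) reached an unadjusted p under 0.05. An unadjusted p under 0.05 by limma was reached by Col14a1, Col4a5 and Col8a2, all higher, beside 3.41% of all genes higher and 1.72% lower. Col8a2 passed the filter only through its diabetic and AAT-treated signals, since both normoglycemic ones were below the filter value. The groups did not overlap, with AAT-treated above, for 8 kept members (16% of all genes): Col14a1, Col4a5, Col8a2, Col1a2, Col5a1, Col6a1, Col6a2 and Col16a1. Col9a1 was the 1 kept member with both AAT-treated arrays below both normoglycemic arrays (16.1% of all genes). Normoglycemic arrays were both below the other 4 for Col5a1, Col6a1, Col8a2 and Col16a1, which is 4 of 29, beside 8.12% of all genes. They were both above the other 4 for 0 of the 29, beside 8.65% of all genes. Under the filter, Col2a1 had that order (57.5 and 109.7 on the normoglycemic arrays).

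Col8a2, a chain of the short-chain network collagen VIII known from the cornea and from vessel walls, read 86.2 and 120 on normoglycemic arrays, 336 and 245 on diabetic arrays and 296 and 320 on AAT-treated arrays. Its difference was 1.04 ± 0.44 for diabetic minus normoglycemic (unadjusted p = 0.0450) and 1.11 ± 0.44 for AAT-treated minus normoglycemic (unadjusted p = 0.0339), and the diabetic and AAT-treated arrays overlapped. Both normoglycemic signals were below the filter value of 164.4. Its usual partner Col8a1 did not run with it: it read 204 and 595, 476 and 369, and 660 and 155, with normoglycemic 1 and AAT-treated 2 low. Col16a1, a FACIT chain, read 634 and 623 on normoglycemic arrays, 822 and 1231 on diabetic arrays and 968 and 1027 on AAT-treated arrays, and differed by 0.62 ± 0.32 and 0.61 ± 0.32 from normoglycemic in the other two groups (unadjusted p = 0.0884 and 0.0942).

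**Figure D4:**
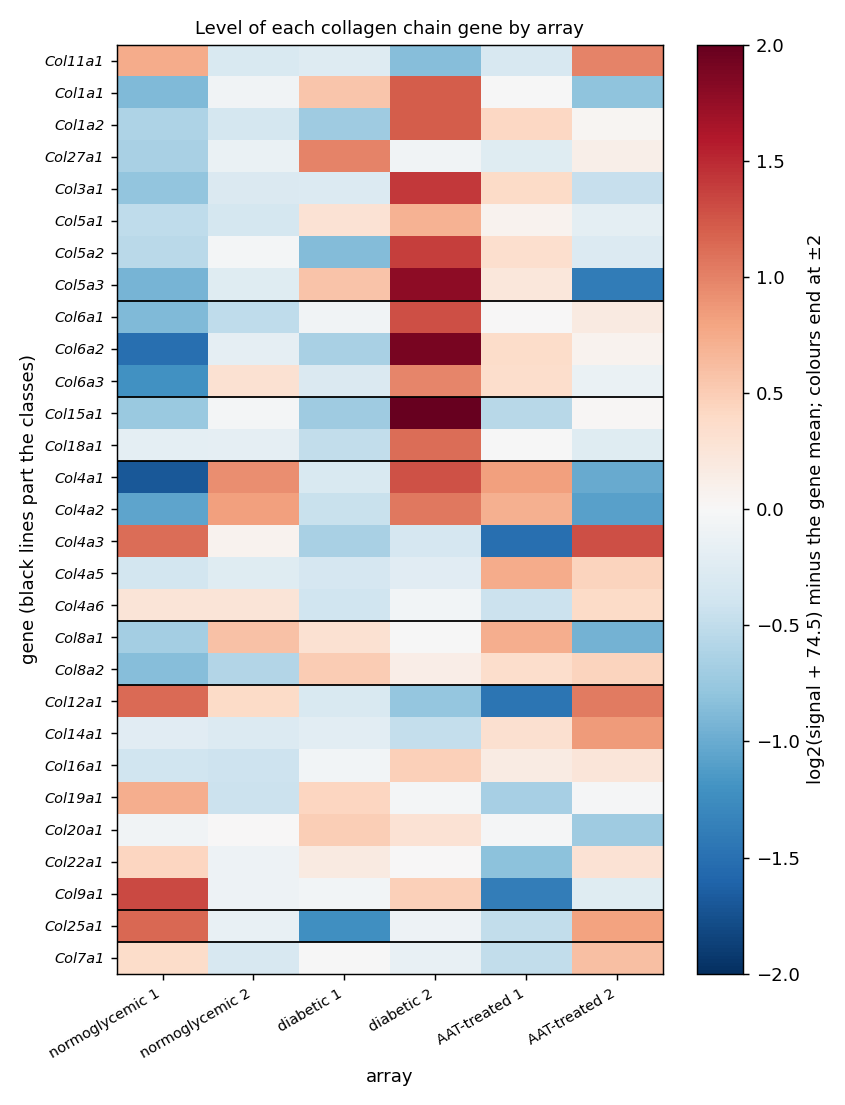
Log2(signal + 74.5) of each kept collagen chain gene minus its mean over the 6 arrays, by array, with black lines between classes. Diabetic 2 is the highest column for 14 genes, among them Col3a1, Col6a2 and Col15a1, and normoglycemic 1 with AAT-treated 2 is high for Col11a1, Col12a1, Col22a1, Col25a1, Col4a3 and Col7a1 and low for Col4a1, Col4a2 and Col8a1.

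Other chains were highest on 2 arrays that are not of the same group, at a share near that of all genes. Normoglycemic 1 and AAT-treated 2 were both above the other 4 arrays for Col11a1, Col12a1, Col22a1, Col25a1, Col4a3 and Col7a1, which is 6 of 29, beside 20.6% of all genes. They were both below the other 4 for Col1a1, Col3a1, Col4a1, Col4a2, Col5a3, Col8a1 and Col20a1, which is 7 of 29, beside 13.7% of all genes. Col12a1, a FACIT chain of tendon and skin, read 555 on normoglycemic 1 and 513 on AAT-treated 2, against 300.2, 157, 92.9 and 29.8 on the others. Col7a1, the anchoring fibril chain of skin, read 625 and 751 on those arrays and 309 to 465 on the others. Col25a1, a transmembrane chain, read 636 and 486 against 63.0 to 225. These were the 2 arrays with the brightest hybridisation controls. With those controls as a covariate, the diabetic minus normoglycemic difference was -0.31 instead of -1.30 for Col12a1, -0.18 instead of -1.16 for Col25a1 and -0.13 instead of -0.77 for Col11a1. The same covariate took Col7a1 from -0.10 to 0.45 and Col22a1 from -0.07 to 0.43. Of 7 skin and mammary markers, the keratins Krt5, Krt8 and Krt18 were highest on AAT-treated 2 and next highest on normoglycemic 1. Krt14 and Csn2 were highest on normoglycemic 1, Wap was highest on normoglycemic 2, and Epcam was lowest on AAT-treated 2. The summed signal of the 7, carried by Krt5, Krt8 and Krt18, was 9830 on AAT-treated 2, 3850 on normoglycemic 1 and 1590 to 3170 on the other arrays. The part of epithelium in these collagen values was not tested. With both arrays left out, the diabetic minus normoglycemic median of the members was 0.31, and 1 member reached an unadjusted p under 0.05, beside 7.32% of all genes.

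The remaining kept members, Col9a1, Col19a1, Col20a1 and Col22a1, all FACIT chains, had signals between 17.9 and 531, and none reached an unadjusted p under 0.05 in any comparison. Col9a1, a cartilage chain, was highest on normoglycemic 1 (531) and lowest on AAT-treated 1 (17.9), with both AAT-treated arrays below the other 4 (5.1% of all genes), for an AAT-treated minus normoglycemic difference of -1.42 ± 0.67 (unadjusted p = 0.0649). The 13 members under the filter were the fibrillar Col2a1, Col11a2 and Col24a1, Col4a4, the type VI chains Col6a4 and Col6a5, Col9a2 and Col9a3, Col10a1, the transmembrane Col13a1, Col17a1 and Col23a1, and Col26a1. Their mean signals lay between 8.3 (Col9a2) and 164.1 (Col6a4). Col2a1, the main collagen of cartilage, had a mean of 49.5 and Col10a1, of growth plate cartilage, 35.2. Over 5 cartilage and bone markers the summed signal was 691 to 2600.

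Probe sets of the same gene did not always give the same sign. Of the kept members, 14 had a second probe set above the filter, and all probe sets of the gene had the same sign for 10 of 14 in diabetic minus normoglycemic, 10 of 14 in AAT-treated minus diabetic, and 9 of 14 in AAT-treated minus normoglycemic. In the first comparison the 4 with opposite signs were Col12a1, Col14a1, Col20a1 and Col4a5. Col1a2, Col3a1, Col4a1, Col5a1, Col5a2, Col6a2 and Col18a1 had the same sign on all their probe sets there. Levels of different probe sets are not compared, since each binds with its own strength.

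Of 18 genes that fold and modify collagen chains 17 were kept, and 15 of these were higher in the diabetic than in the normoglycemic mean (46.4% of all genes), with a median of 0.62. That median was 0.27 without diabetic 2 and 0.17 without normoglycemic 1. An unadjusted p under 0.05 was reached by 1 of the 17, beside 5.27% of all genes higher at that level. That was Serpinh1, the collagen chaperone HSP47, at 1274 and 2510.2 on normoglycemic arrays, 2542 and 8292 on diabetic arrays and 1926 and 2036 on AAT-treated arrays. Its difference was 1.33 ± 0.55 (unadjusted p = 0.0423) and then -1.19 ± 0.55 for AAT-treated minus diabetic (unadjusted p = 0.0629). For AAT-treated minus diabetic the list's median was -0.18. For AAT-treated minus normoglycemic it was 0.32, and 3 genes reached an unadjusted p under 0.05, all higher, beside 3.41% of all genes: the prolyl hydroxylase P4ha2 (1.58 ± 0.63), the lysyl hydroxylase Plod2 (1.28 ± 0.46) and the prolyl hydroxylase P3h2 (1.09 ± 0.40).

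Procollagen trimming and crosslinking genes were few. Bmp1, the protease that removes the C-propeptide, read 372 and 289 on normoglycemic arrays, 783 and 931 on diabetic arrays and 859 and 682 on AAT-treated arrays. Its difference from normoglycemic was 1.20 ± 0.32 in diabetic (unadjusted p = 0.00546, adjusted p = 0.459) and 1.06 ± 0.32 in AAT-treated fat (unadjusted p = 0.0107). It was the 1 gene of 4 kept at an unadjusted p under 0.05 by limma in both comparisons, beside 5.27% and 3.41% of all genes higher at that level. Loxl1, a lysyl oxidase-like crosslinking enzyme, read 617 and 847 in normoglycemic fat and between 1562 and 1739 on the other 4 arrays. It differed from normoglycemic by 1.11 ± 0.31 and 1.07 ± 0.31 (unadjusted p = 0.00663 and 0.00823). Loxl1 was the 1 of 4 kept crosslinking genes at that level, beside the same 5.27% and 3.41% of all genes higher. AAT-treated minus diabetic was near zero for Bmp1 (-0.14 ± 0.32) and Loxl1 (-0.04 ± 0.31). It was also near zero for the collagens Col1a2 (-0.02) and Col16a1 (-0.01) and for the second Col1a1 probe set (-0.05). It was -1.28 for the main Col1a1 probe set and -1.76 for Col5a3. Whether Bmp1 and Loxl1 differ from the collagens in that comparison was not tested.

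Fibril-associated proteoglycans and glycoproteins were higher in AAT-treated than in normoglycemic fat for 12 of 13 genes, with a median of 1.06, and 6 of the 13 reached an unadjusted p under 0.05, all higher, beside 3.41% of all genes. Without normoglycemic 1, 11 of the 13 were higher and the median was 0.95. The 3 with the smallest p were Aspn (2.51 ± 0.53), Ogn (1.69 ± 0.37) and Postn (1.89 ± 0.54), with adjusted p = 0.786, 0.786 and 0.874 by limma. Periostin (Postn), a matricellular protein that binds collagen I, read 1709 and 6238 on normoglycemic arrays, 3006 and 3242 on diabetic arrays and 11811 and 12890.5 on AAT-treated arrays. In AAT-treated minus diabetic 4 of 13 reached that level, all higher, beside 2.94% of all genes, led by Postn (1.96 ± 0.54), Aspn (1.81 ± 0.53) and Ogn (1.05 ± 0.37). In diabetic minus normoglycemic 2 of 13 did, beside 5.27% of all genes. These were Fmod (1.77 ± 0.45) and Tnxb (1.24 ± 0.43), which code for fibromodulin and tenascin-X, both binders of fibrillar collagen. The list's median there was 0.45, and -0.07 without diabetic 2. Of the 13 genes, 6 had both AAT-treated arrays above both diabetic arrays (17.9% of all genes). Above both normoglycemic arrays they were for 10 (16% of all genes). Both AAT-treated arrays were above the other 4 for Aspn, Ogn and Postn, which follows largely from their being named for a small p. Col14a1 and Col4a5 had the same order, but not on their second probe sets. The AAT-treated arrays were below both diabetic arrays for Col1a1 and Col5a3 (15.9% of all genes). On the second Col1a1 probe set they were above diabetic 1 and below diabetic 2.

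Among 7 kept collagen receptors, Ddr1, a receptor tyrosine kinase for collagen, read 530.1 on normoglycemic 1, 2401 on normoglycemic 2 and 3729 to 4075 on the other 4 arrays. Ddr1 and Mrc2, the endocytic collagen receptor, were the 2 of 7 at an unadjusted p under 0.05 by limma in diabetic minus normoglycemic, beside 5.27% of all genes higher. Their differences were 1.71 ± 0.58 and 1.61 ± 0.59 (unadjusted p = 0.0173 and 0.0240). The list's median there was 0.29, and -0.13 without normoglycemic 1. Ddr2, the receptor of fibroblasts, differed between AAT-treated and diabetic fat by 0.79 ± 0.33 (unadjusted p = 0.0453). Of 10 kept genes of collagen degradation, 3 reached that level in diabetic minus normoglycemic, all higher, beside 5.27% of all genes: the gelatinase Mmp2 (1.10 ± 0.32), the inhibitor Timp2 (0.93 ± 0.33) and the fibroblast protease Fap (1.66 ± 0.63). The median of the 10 there was 0.20, and it was 0.43 without diabetic 2 and 0.63 without normoglycemic 1. Mmp14, the membrane-bound collagenase, was the 1 of 10 at an unadjusted p under 0.05 by limma in AAT-treated minus diabetic (1.03 ± 0.37). In that comparison 2.94% of all genes were higher at that level. Mmp14 differed from normoglycemic by 1.41 ± 0.37 in AAT-treated fat.

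Laminins and other basement membrane genes, 10 of 10 kept, had 9 higher in the diabetic mean, beside 46.4% of all genes. Their median of 0.72 was 0.20 without diabetic 2 and 0.17 without normoglycemic 1. Hspg2, the proteoglycan perlecan, was the 1 of 10 at an unadjusted p under 0.05 by limma (1.84 ± 0.74, unadjusted p = 0.0367), beside 5.27% of all genes higher. Its signal was 360.1 on normoglycemic 1, 2600.4 on normoglycemic 2 and 2948 and 4873 on the diabetic arrays. Of 9 kept genes of TGF-beta input, a known inducer of collagen genes, 7 were higher in the diabetic mean, beside 46.4% of all genes. Their median of 0.53 was 0.09 without normoglycemic 1. The 1 of 9 at that level, beside 5.27% of all genes higher, was Tgfbi, a matrix protein induced by TGF-beta. Tgfbi read 1472 and 1454 on normoglycemic arrays, 5692 and 7295 on diabetic arrays and 6292 and 4958 on AAT-treated arrays. It differed from normoglycemic by 2.08 ± 0.32 and 1.88 ± 0.32 (unadjusted p = 0.000154 and 0.000317, adjusted p = 0.283 and 0.786).

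**Figure D5:**
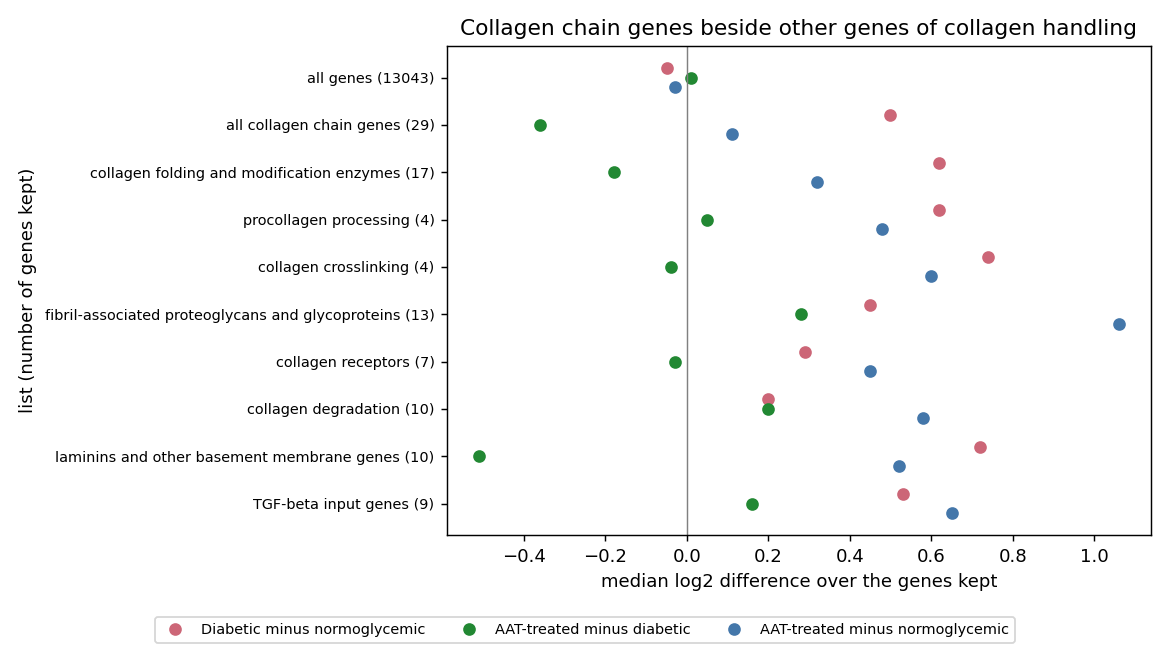
Median log2 difference over the genes kept in each list, with the number kept in brackets, in the 3 comparisons, beside all genes and all collagen chain genes. The collagen chain genes have medians of 0.50, -0.36 and 0.11, and the proteoglycan and glycoprotein list has its highest median, 1.06, in AAT-treated minus normoglycemic.

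Markers of cell types that make or sit beside collagen also differed between the arrays. All 7 kept fibroblast and adipose progenitor markers were higher in the diabetic mean, 2 of them at an unadjusted p under 0.05 (Pdgfra 0.94 ± 0.38 and Pi16 1.67 ± 0.64), beside 5.27% of all genes higher at that level. Without diabetic 2, 5 of the 7 were higher, and the median of the 7 was 0.48 instead of 0.69. Their summed signal was 11700 and 16300 on normoglycemic arrays, 14800 and 24700 on diabetic arrays and 21200 and 18400 on AAT-treated arrays. All 7 macrophage markers were higher in the diabetic mean (46.4% of all genes), 4 of them at that level, beside 5.27% of all genes. Without diabetic 2, 5 of the 7 were higher, and their median of 1.37 was 0.67. Their summed signal was 5100 and 5320 on normoglycemic arrays, 11600 and 23800 on diabetic arrays and 13200 and 8440 on AAT-treated arrays. Both sums were highest on diabetic 2, as were 14 of the collagen chains. The part of fibroblasts and macrophages in the collagen values was not tested. Blood cell and platelet markers ran the other way, with all 5 lower in the diabetic mean and a summed signal of 2600 and 3200 on the diabetic arrays against 4050 to 12100 on the other 4.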

How the data were processed

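For each of the 6 arrays the authors deposited linear intensities of 45101 probe sets. The submitters' processing notes name MAS5; its release is not given in the sources used here. That method takes mismatch signal away from each probe set, which leaves dim ones noisy. Per the labels' protocols, Trizol was used for total RNA and biotin as the label. Probe sets were named through the platform annotation: 34945 had 1 symbol, 932 several and 9160 none, and 64 were controls. By gene ID, 34741 matched RefSeq, and 0 symbols changed.

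Signals were turned into log2(signal + 74.5), the 25th percentile of all values. A limma 3.58.1 fit (R 4.3.3) of 3 group means used all 6 arrays, with a trended eBayes prior, 2-sided tests, Benjamini-Hochberg over 13043 genes, and 3 residual and 5.36 prior degrees of freedom. The procedure was tested on simulated data. No block was used: deviations of arrays with the same number correlated at 0.0751, -0.505 and -0.116 between the pairs of groups. These values gave no clear sign that arrays of the same number run together. With 2 arrays a group they cannot settle whether arrays are paired. The -0.505, between normoglycemic and AAT-treated arrays, means that array 1 of one group tended to run with array 2 of the other. There were 19 planned and 2 added alternatives.

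The members, classes, gene lists and tests were chosen with earlier results of these data known. Any kept collagen gene could be named; of the other lists, up to 3 genes with the smallest unadjusted p under 0.05 in a comparison, or else the 1 smallest. Adipoq, Lep, Nid1, Sparc, Myh11 and the epithelial markers were named after their values were seen.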

Additional observations from a re-analysis of the deposited data

How the results depend on the processing

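No collagen chain gene passed an adjusted p of 0.05 by limma in any of the 19 planned or 2 added alternatives. Over all genes, 1 passed in diabetic minus normoglycemic with the hybridisation controls as a covariate, 1 in AAT-treated minus diabetic with that covariate and 1 without the filter, and, in AAT-treated minus normoglycemic, 0 to 3 with single arrays left out. Members at an unadjusted p under 0.05 were 5, 4 and 3 in the comparisons diabetic minus normoglycemic, AAT-treated minus diabetic and AAT-treated minus normoglycemic. With 1 array left out these counts ranged from 0 to 10, from 1 to 10 and from 0 to 4; the lone array of a group is then assumed to vary like the others. The hybridisation covariate gave 2 in the first (5.54% of all genes in that fit), the mean of a gene's probe sets gave 1 in the second (4.54%), and the β-actin covariate gave 7 in the second (8.98%) and 8 in the third (9.18%). Leaving out normoglycemic 1 and AAT-treated 2 together, chosen after seeing the data, gave 1 in the first (7.32%) and 2 in the second (3.96%). The median of the members in the first comparison (0.50) was 0.23 without the filter, 0.80 with the filter at the 60th percentile, 0.79 with the β-actin covariate and 0.04 to 0.85 with 1 array left out. In the second (-0.36) it was 0.04 with the β-actin covariate and -0.66 to 0.24 with 1 array left out, and in the third (0.11) it was 0.47 and 0.06 to 0.50. The β-actin covariate also turned the sign in diabetic minus normoglycemic of Col1a1 (-1.71), Col5a1 (-0.02) and Col5a3 (-3.48), and in AAT-treated minus diabetic of Col1a1 (0.40) and Col5a3 (1.10). That covariate varied little within the normoglycemic and diabetic groups, so its slope rests mostly on the AAT-treated arrays. No conclusion is drawn from any value of that fit. Centring each array on its median moved the median of all genes from -0.05 to 0.06 and from -0.03 to 0.08 in the comparisons with normoglycemic fat. Why the other settings changed the values was not tested.

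With the replicate number as a block, members at an unadjusted p under 0.05 in AAT-treated minus normoglycemic were 1 instead of 3 (3.85% of all genes), and 5 and 4 as before in the other comparisons. With the AAT-treated numbers crossed, a pairing added after seeing the data, 9 members and 14.4% of all genes reached that p in diabetic minus normoglycemic and 1 of all genes passed an adjusted p of 0.05 in AAT-treated minus normoglycemic.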
